A study of Mus musculus with 32 samples.

Results

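Iron handling genes were followed in mouse bone marrow-derived macrophages (BMDMs) across all 16 combinations of genotype and treatment of the series. The 10 genes were chosen by name (Slc40a1, Hamp, Slc11a2, Tfrc, Slc11a1, Lcn2, Ireb2, Aco1, Fth1 and Ftl1), and they are measured by 14 of the 55681 probes of the array. Of the 24082 genes that carry a symbol on the array, 16035 were bright enough to be tested, among them 9 of the 10 members. Hamp, the remaining member, was well above background on 12 of the 32 arrays and did not reach the filter of 50% of the arrays, so it is described apart.

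BMDMs were grown from bone marrow with M-CSF, of C57BL/6 mice (WT; the methods name substrain J) or of Ifnar1-/- mice of a Jackson Laboratory line, whose cells are without 1 chain of the receptor for type I interferons. Each genotype was left untreated or received for 6 h either LPS, given alone, with zVAD (LPS+zVAD) or with zVAD and Nec-1 (LPS+zVAD+Nec-1), or IFNβ in the same 3 ways (IFNβ, IFNβ+zVAD, IFNβ+zVAD+Nec-1), or zVAD alone. LPS is a bacterial ligand of TLR4, zVAD inhibits caspases, LPS or IFNβ with zVAD is the necroptosis stimulus of the study, and Nec-1 is an inhibitor of RipK1. According to the labels, 100 ng/mL of LPS was used, and 1000 U/mL of IFNβ. Other doses of LPS and IFNβ appear in the methods and the legends, so the doses are uncertain. Every group has 2 arrays, the labels do not say whether these come from separate mice or cultures, and p-values therefore measure only the spread between these arrays. The ages of the mice are not given in the sources used here.

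Iron leaves macrophages through ferroportin, the product of Slc40a1, the only known exporter of iron from mammalian cells. Hepcidin, a peptide hormone encoded by Hamp, binds ferroportin and sends it for degradation. Iron enters through the transferrin receptor (Tfrc) and crosses membranes through the proton-coupled transporters DMT1 (Slc11a2) and NRAMP1 (Slc11a1), of which the latter pumps metal out of the phagosome. Lipocalin 2 (Lcn2) binds bacterial siderophores. Ferritin, built of heavy (Fth1) and light (Ftl1) chains, stores iron, and the iron regulatory proteins IRP1 (Aco1) and IRP2 (Ireb2) bind the mRNAs of ferritin, ferroportin and the transferrin receptor when iron is low. Macrophages recycle iron from red cells, and holding it back from microbes is a known part of their response to infection.

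The values are log2 intensities of the arrays after quantile normalization, and a level is never compared here between probes. On WT arrays 54.8% to 77.7% of the probes were detected, with a median of 62.5%, and on Ifnar1-/- arrays 44.5% to 61.6%, with a median of 53.5%. Ifnar1 itself was checked on 3 probes. For the Ifnar1 probe that stands for the gene, the untreated levels were 14.22 and 14.19 in WT and 11.89 and 11.87 in Ifnar1-/- BMDMs, but over all treatments its WT levels (9.02 to 14.76) overlapped those of Ifnar1-/- (11.16 to 12.44). The other Ifnar1 probes did not overlap, with 9.94 to 11.88 in WT against 7.29 to 8.73 in Ifnar1-/- on the brighter and 7.88 to 10.23 against 5.82 to 7.35 on the dimmer; whether any of the probes lies in the deleted part is not known. All 11 macrophage markers were well above background on both arrays of every group. Of 12 neutrophil markers 9 to 12 were, S100a8, S100a9, Ngp and Camp among them in every group, and 1 to 4 of 10 erythroid markers were. The mean log2 level of the neutrophil markers ran from 8.56 to 10.39 on the WT arrays and from 10.01 to 10.56 on the Ifnar1-/- arrays. Other marker lists moved with genotype or treatment: the mean of 6 stromal markers (4 to 5 well above background on both arrays of a group) was 5.65 and 6.49 in untreated WT, 7.20 and 7.76 in untreated Ifnar1-/- and 8.50 and 8.60 in Ifnar1-/- LPS, and that of 6 dendritic cell markers (2 to 5) was 6.37 and 6.59 in untreated WT and 7.73 and 8.36 in WT IFNβ. The part of these cells in the results was not tested. The arrays of the Ifnar1-/- LPS+zVAD+Nec-1 group (here called the discordant pair) stood apart from each other (Pearson r = 0.947, against 0.973 to 0.991 in the other 15 groups), and leaving out 1 or both changed several of the calls given below.

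All 8 arrays of a slide carry 1 genotype and 1 replicate number. Slide and genotype therefore cannot be told apart within 1 treatment, whereas a change with treatment, and a difference between the genotypes' changes, is measured within slides. A single limma fit of all 16 group means gave every test, with Benjamini-Hochberg adjustment over the 16035 genes of each comparison, and "called" means that the adjusted p was under 0.05.

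Over the 7 treatments, 34 of 63 tests of the members gave a call in WT BMDMs and 9 of 63 in Ifnar1-/- BMDMs; the difference between these counts was not itself tested. The comparisons of a genotype share its untreated arrays. In WT BMDMs, LPS changed 7 of the 9 tested members (3 higher, 4 lower), against 41.2% of all genes. IFNβ changed 4, all lower, against 35.3%. For LPS+zVAD the count was 7 (3 higher, 4 lower) against 51.0%, for IFNβ+zVAD 5 against 37.5%, for LPS+zVAD+Nec-1 6 against 40.9%, and for IFNβ+zVAD+Nec-1 5 against 31.7%. With zVAD alone limma called 0 members and 0.00624% of all genes, and 1 member and 901 genes had an unadjusted p under 0.05.

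In Ifnar1-/- BMDMs, LPS changed 4 members (3 higher, 1 lower), against 24.8% of all genes, and LPS+zVAD changed 4, against 28.2%. LPS+zVAD+Nec-1 changed 1, against 1.32%. With IFNβ limma called 0 members and 0% of all genes, with an unadjusted p under 0.05 in 1 member and 253 genes. With zVAD it also called 0 members and 0% of all genes, with 0 members and 61 genes under that p. For IFNβ+zVAD the calls were 0 members and 0.00624% of all genes (0 members and 585 genes under that p), and for IFNβ+zVAD+Nec-1 0 members and 1.76% (0 members and 1602 genes). The median log2 fold change of the 9 members with LPS was -0.231 in WT, beside -0.0779 over all genes, and 0.0703 in Ifnar1-/-, beside -0.056. Nothing particular to the members is read from these shares.

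The scaling of the arrays moved the balance of higher and lower calls over all genes. When the 75th percentiles of the arrays were aligned by a shift, without quantile normalization, the share of higher calls went from 39.6% to 50.2% for LPS, from 38.8% to 50.1% for IFNβ and from 38.4% to 48.5% for IFNβ+zVAD in WT. For the genotype difference it went from 54.6% to 40.9% with IFNβ, from 56.5% to 43.2% with IFNβ+zVAD, from 60% to 46.5% with LPS+zVAD+Nec-1 and from 55.1% to 45% with IFNβ+zVAD+Nec-1, and for Nec-1 added in Ifnar1-/- from 59.3% to 42.3% with LPS+zVAD and from 66.4% to 77.2% with IFNβ+zVAD. The median of all genes moved most for LPS+zVAD in WT, from -0.154 to 0.123 log2, so that changes of that size carry no settled direction. Bright members moved further. With LPS+zVAD in WT, Ftl1 went from -0.414 to 0.543 log2 and Slc11a1 from -0.82 to 0.00797. On bright probes larger changes can therefore lack a settled direction as well.

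**Figure D1:**
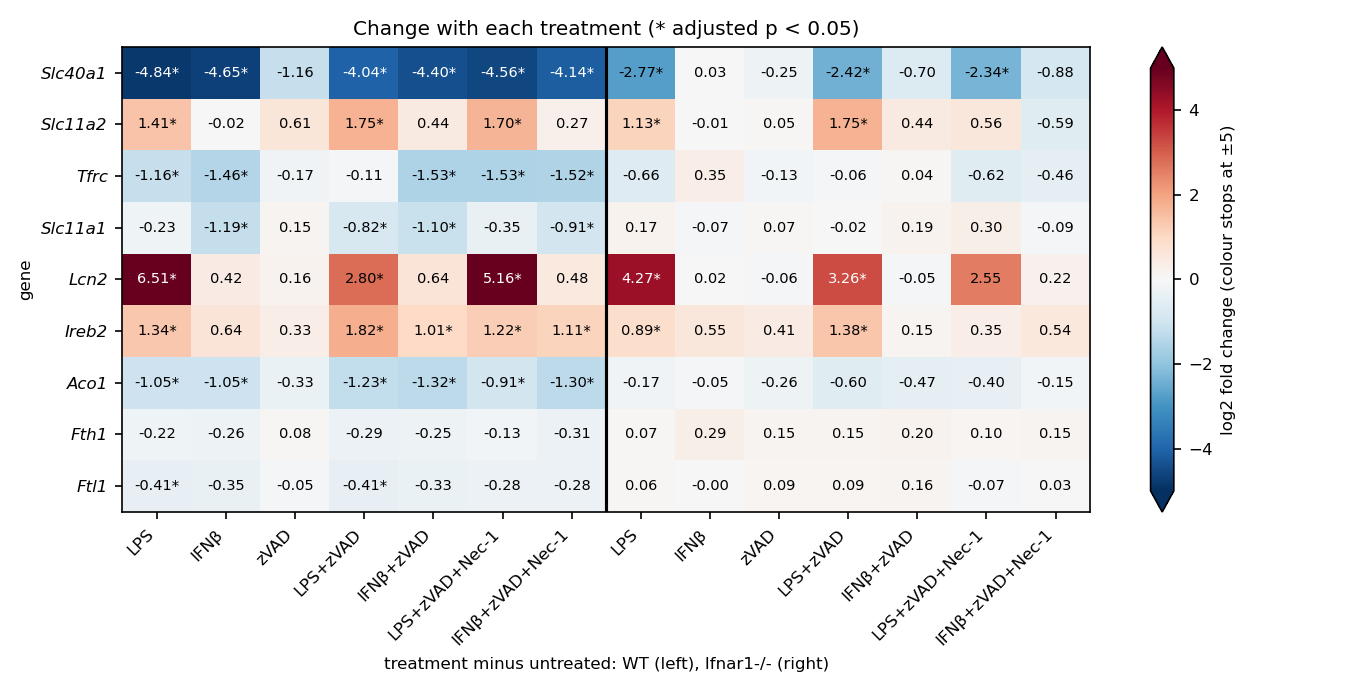
Log2 fold changes of the 9 tested members (rows) with each of 7 treatments against untreated cells of the same genotype (columns; WT left of the black line, Ifnar1-/- right), with an asterisk where limma's adjusted p is under 0.05. Slc40a1 is lower in 6 of the 7 WT columns at -4.04 to -4.84, whereas its IFNβ columns in Ifnar1-/- run from -0.88 to 0.03.

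Slc40a1 fell in every WT group that received LPS or IFNβ, and no change with IFNβ was called in Ifnar1-/- BMDMs. Its probe lies on the minus strand of chromosome 1 (mm9), between bases 45965255 and 45965314. In untreated BMDMs the log2 levels were 12.43 and 12.80 in WT and 12.69 and 12.79 in Ifnar1-/-. After LPS they were 7.83 and 7.71 in WT and 9.89 and 10.04 in Ifnar1-/-. After IFNβ they were 8.04 and 7.88 in WT but 12.73 and 12.82 in Ifnar1-/-. All treated WT arrays here lay far below all untreated ones, and the LPS-treated Ifnar1-/- arrays lay between these and their own untreated arrays, with no overlap.

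LPS lowered Slc40a1 by 28.7-fold in WT BMDMs (log2 fold change -4.84, standard error 0.49, adjusted p = 7.23e-07) and by 6.82-fold in Ifnar1-/- BMDMs (-2.77, adjusted p = 0.00052). IFNβ lowered it by 25.2-fold in WT (-4.65, adjusted p = 7.68e-07), and its log2 fold change in Ifnar1-/- was 0.03 (adjusted p = 1). The change with IFNβ differed between the genotypes by 4.69 log2 (standard error 0.69, adjusted p = 0.000106 in the interaction test). For LPS the difference was 2.08 log2 and missed the threshold (adjusted p = 0.0831), but it passed with the slide as a block (0.0318) and without the discordant pair (0.00251).

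Slc40a1 stayed far below its untreated level in WT BMDMs under the necroptosis stimuli as well. With LPS+zVAD the levels were 8.24 and 8.90 in WT and 10.27 and 10.36 in Ifnar1-/-. With IFNβ+zVAD they were 8.24 and 8.18 in WT and 12.05 and 12.02 in Ifnar1-/-. With Nec-1 added to LPS+zVAD they were 7.56 and 8.55 in WT, whereas the arrays of Ifnar1-/- read 9.16 and 11.64. The WT levels of these groups overlap each other, and the last pair is the widest of all. With Nec-1 added to IFNβ+zVAD they were 8.21 and 8.73 in WT and 11.86 and 11.85 in Ifnar1-/-, where the genotypes are again wholly apart.

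In WT, Slc40a1 fell in each of these groups, with log2 fold changes of -4.04 with LPS+zVAD, -4.40 with IFNβ+zVAD, -4.56 with LPS+zVAD+Nec-1 and -4.14 when Nec-1 was added to IFNβ+zVAD, and adjusted p between 1.06e-06 and 3.7e-06. In the Ifnar1-/- cells it fell by 2.42 log2 with LPS+zVAD (adjusted p = 0.0013) and by 2.34 with LPS+zVAD+Nec-1 (0.0204). The latter call was lost without Ifnar1-/- LPS+zVAD+Nec-1 replicate 1 (-1.1, adjusted p = 0.214), without Ifnar1-/- untreated replicate 1 (0.16) and without Ifnar1-/- untreated replicate 2 (0.174). The genotypes' changes differed by 3.71 log2 with IFNβ+zVAD (adjusted p = 0.00106), by 3.26 with IFNβ+zVAD+Nec-1 (0.00288) and by 2.22 with LPS+zVAD+Nec-1 (0.0325). With LPS+zVAD the difference was 1.62 (adjusted p = 0.127, and 0.0079 without the discordant pair). The difference under LPS+zVAD+Nec-1 was not called when any of 6 arrays was left out: WT untreated replicate 1 (0.0517) or 2 (0.11), Ifnar1-/- untreated replicate 1 (0.0916) or 2 (0.069), WT LPS+zVAD+Nec-1 replicate 1 (0.158) and Ifnar1-/- LPS+zVAD+Nec-1 replicate 2 (0.166).

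zVAD alone gave Slc40a1 levels of 11.43 and 11.49 in WT, both below the untreated arrays, a log2 fold change of -1.16 that was not called after adjustment over all genes (unadjusted p = 0.0298, adjusted p = 0.797). With zVAD in Ifnar1-/- BMDMs the levels were 12.15 and 12.84, on either side of the untreated ones. Across the 16 group means, the genes most like Slc40a1 among 13634 with a range of at least 1 log2 were Dchs1 (Pearson r = 0.985), Gdpd3 (0.978) and Ttyh3 (0.974), all measured on the same arrays.

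**Figure D2:**
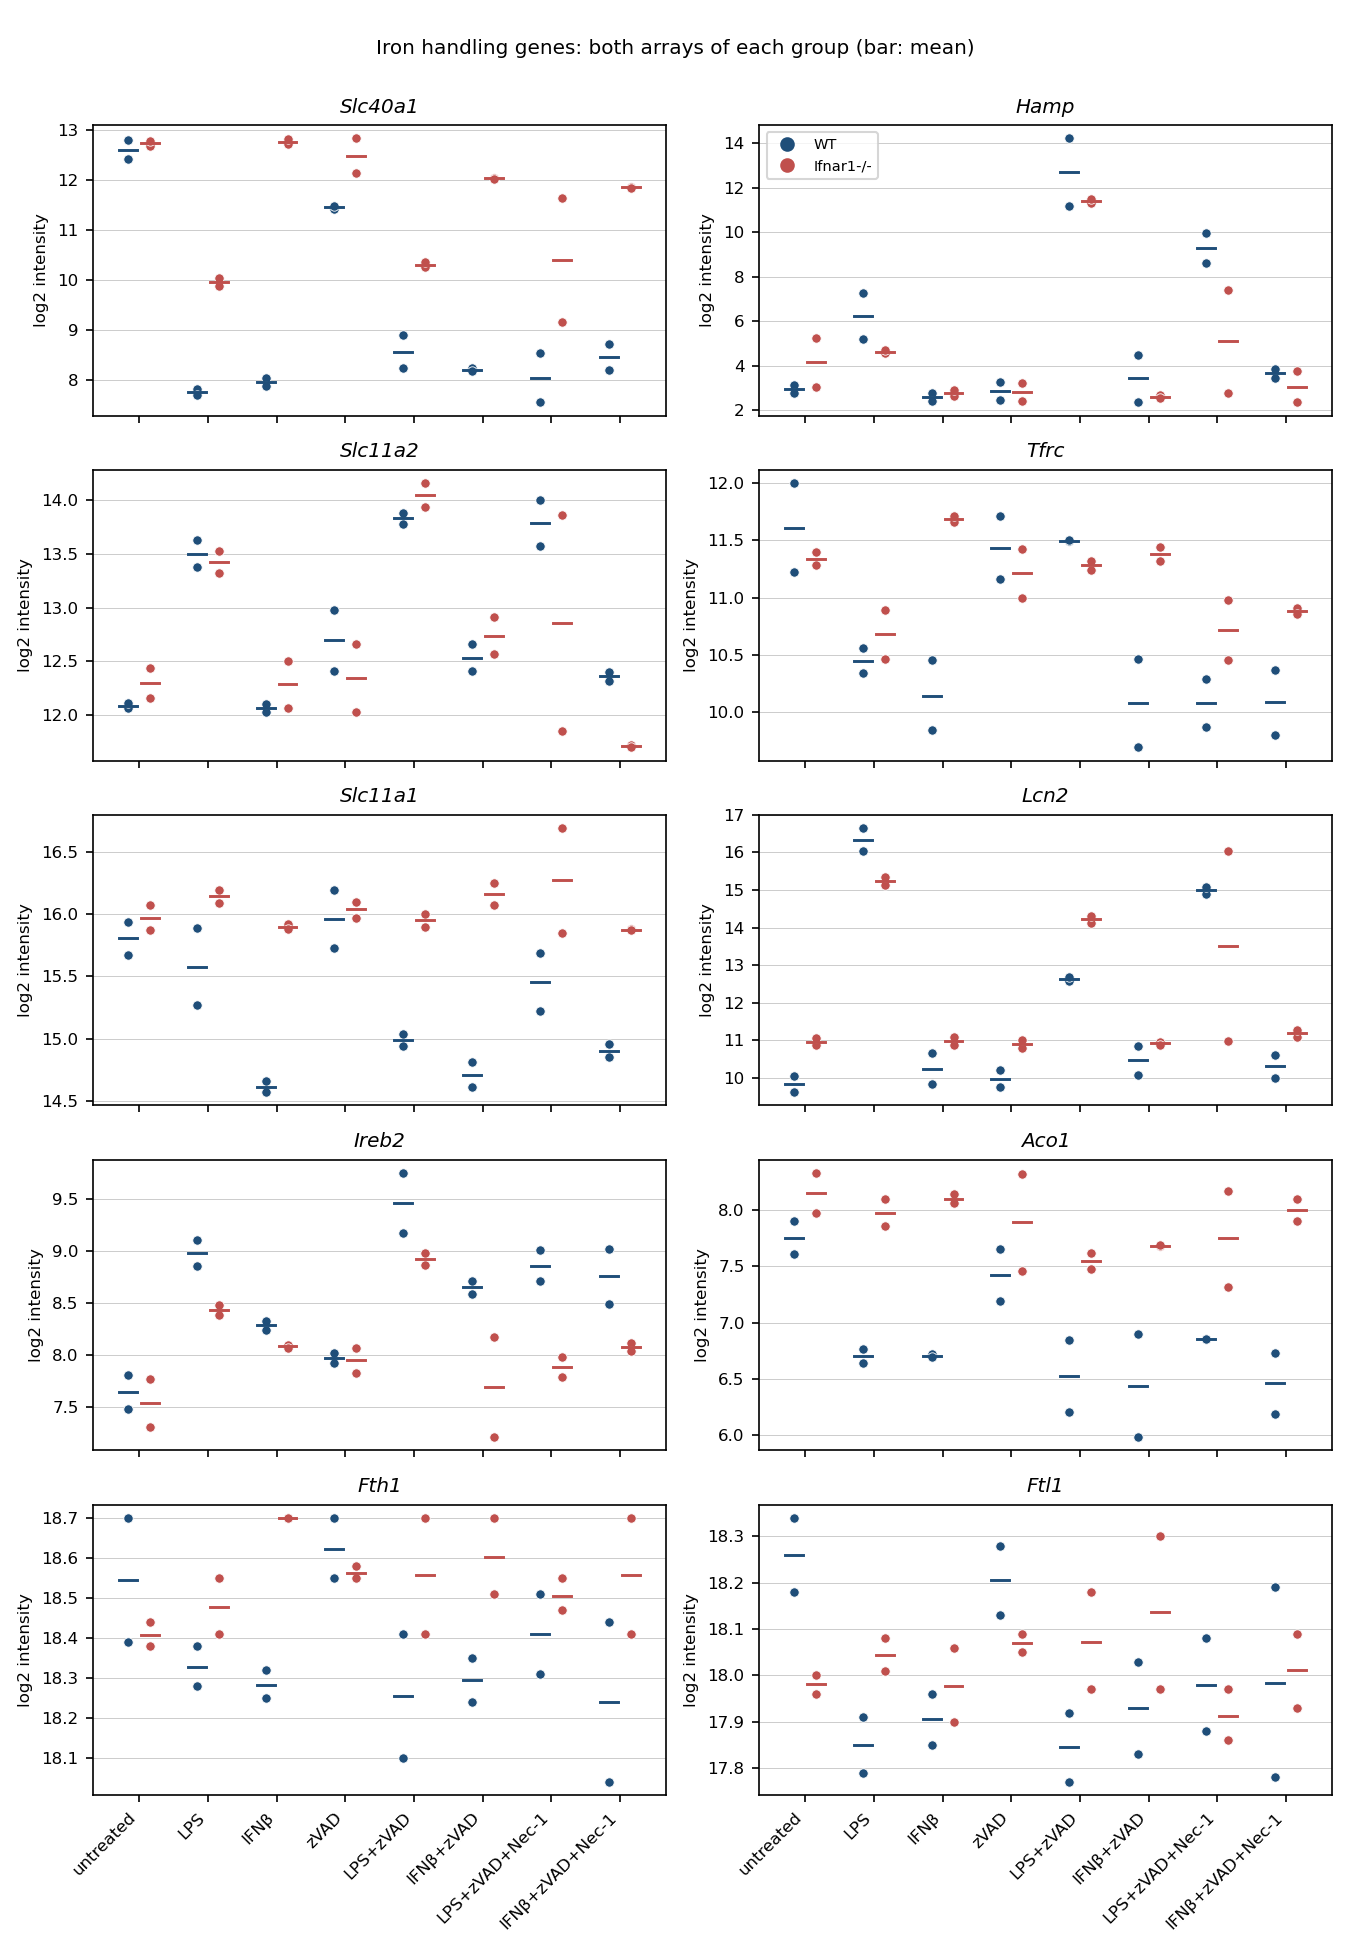
Log2 intensity (vertical axes, 1 panel a gene, each with its own range) of the 10 iron handling genes on both arrays of each of 16 groups (horizontal axis: treatment; blue WT, red Ifnar1-/-); points are arrays and short bars are group means. Hamp was well above background on only 12 of the 32 arrays, so its low points have no order, and the widest red pair of Lcn2 is the Ifnar1-/- LPS+zVAD+Nec-1 group at 16.04 and 10.98.

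Hamp, the hepcidin gene, is best known from hepatocytes, and here its probe was bright in LPS+zVAD-treated BMDMs of both genotypes. The probe, chromosome 7 of mm9 from 31727490 to 31727549 on the minus strand, is shown because the finding rests on it alone. It covers the end of the coding region, and its 60 bases read:

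Hamp probe: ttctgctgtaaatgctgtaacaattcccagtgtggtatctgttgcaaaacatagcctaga

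In untreated WT BMDMs the Hamp levels were 3.12 and 2.75 and neither array was well above background. With LPS+zVAD they were 11.19 and 14.22 in WT and 11.31 and 11.47 in Ifnar1-/-, all 4 well above background. Untreated Ifnar1-/- BMDMs read 3.04 and 5.25, with 1 array well above background. With LPS alone the levels were 5.17 and 7.28 in WT, both well above background, and 4.57 and 4.69 in Ifnar1-/-, neither well above. The LPS+zVAD arrays of both genotypes thus lay above every other array of the series for this probe. When Nec-1 was added to LPS+zVAD the levels were 8.59 and 9.96 in WT, between LPS and LPS+zVAD, and 7.41 and 2.77 in Ifnar1-/-, of which only the first was well above background.

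Relative to untreated WT BMDMs, where Hamp was not well above background, it was at least 9.15-fold higher with LPS, at least 813-fold higher with LPS+zVAD and at least 75.5-fold higher with LPS+zVAD+Nec-1. With the lower of the bright arrays alone these bounds were 4.40-fold, 284-fold and 46.9-fold. The bounds set the mean of the brighter group against the lowest signal that was well above background on each dim array, or the dim signal itself where higher. In Ifnar1-/- BMDMs, Hamp was at least 108-fold higher with LPS+zVAD than with LPS. In a limma fit of all genes without the filter on dim probes, adjusted p was 0.0461, 2.69e-06 and 0.000485 for the 3 WT comparisons, 0.000382 for LPS+zVAD against untreated Ifnar1-/- and 0.00213 for LPS+zVAD against LPS in Ifnar1-/-. In the same fit LPS+zVAD against LPS in WT differed by 6.47 log2 (adjusted p = 0.000499), and adding Nec-1 to LPS+zVAD gave -3.43 log2 in WT (0.0524). Most of the untreated and Ifnar1-/- LPS arrays behind these values were not well above background, so the sizes against them are not settled. Nec-1 added to LPS+zVAD in Ifnar1-/- gave -6.3 log2 in that fit (adjusted p = 0.00232). The genotypes' changes with LPS+zVAD+Nec-1 differed by -5.4 (0.0464). Both rest on the discordant pair, of which only 1 array was well above background. No other difference between the genotypes' changes was called for Hamp.

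No IFNβ group was well above background for Hamp on both arrays; WT IFNβ read 2.78 and 2.41, Ifnar1-/- IFNβ 2.65 and 2.88, and WT IFNβ+zVAD 4.48 and 2.38 with 1 array well above. The probe of Hamp2, the neighbouring paralogue, stayed between 4.45 and 7.54 over all arrays, with 6.32 and 6.27 in WT LPS+zVAD against 6.13 and 5.75 in untreated WT. Hepatocyte markers were not among the lists examined, and a contribution of other cells to the Hamp signal was not tested.

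The 250 bases before the Hamp start site (chr7:30944030-30944279, minus strand, RefSeq on GRCm38.p6) are shown because Hamp moved most of all members. Of the members whose promoter could be searched, Hamp also held matches to the most motifs. Capitals mark GGCGCC, the core of the element that BMP signalling uses at this gene, the STAT-type motif TTCNNNGAA and the AP-1 motif TGANTCA.

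Hamp promoter: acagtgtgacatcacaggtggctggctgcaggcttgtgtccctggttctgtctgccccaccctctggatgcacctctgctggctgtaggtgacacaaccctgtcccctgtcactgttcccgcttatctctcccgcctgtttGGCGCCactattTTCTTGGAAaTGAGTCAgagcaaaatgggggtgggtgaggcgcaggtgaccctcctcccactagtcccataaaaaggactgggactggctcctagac

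The matches begin 109, 97 and 87 bases before the start and do not overlap. Searched on both strands of 32851 RefSeq windows of this length, GGCGCC was found in 9.59%, TTCNNNGAA in 7.02% and TGANTCA in 6.75%. The windows of 8 of the 10 members could be matched by symbol. Slc40a1 and Slc11a2 had no matched window, so their promoters were not searched. In the windows of the 8 members, the interferon-response motif, TTTC and TTTC with 2 bases between (2.98% of all windows), was not found. The E-box CACGTG (6.02%) was not found there either, and GGCGCC was also in 1 of the Tfrc windows. Lcn2 held, of the motifs searched, only a kappaB core (GGG and CC with 5 bases between), which 45.8% of all windows hold. Such matches describe letters in these windows and no bound factor.

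Slc11a2 rose with LPS and with LPS+zVAD in both genotypes, and no rise with IFNβ was called. Its probe lies on chromosome 15 of mm9, from 100218333 to 100218392 on the minus strand. Levels in WT were 12.07 and 12.11 untreated, 13.38 and 13.63 with LPS, 13.78 and 13.88 with LPS+zVAD and 13.57 and 14.00 with LPS+zVAD+Nec-1. In Ifnar1-/- they were 12.44 and 12.16, 13.53 and 13.32, 14.16 and 13.94, and 13.86 and 11.85 in the same order. Every LPS array lay above every untreated array of its genotype apart from the last, the second array of the discordant pair. With IFNβ the WT arrays read 12.03 and 12.10, overlapping the untreated ones.

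In WT, Slc11a2 rose by 1.41 log2 with LPS (standard error 0.40, adjusted p = 0.0081), by 1.75 with LPS+zVAD (0.0012) and by 1.70 with LPS+zVAD+Nec-1 (0.00223). In Ifnar1-/- it rose by 1.13 with LPS (adjusted p = 0.0466) and by 1.75 with LPS+zVAD (0.00313), and the genotypes' changes with LPS differed by -0.286 log2 (adjusted p = 0.889). The WT call with LPS was lost without WT LPS replicate 2 (0.0525), and the Ifnar1-/- call was lost in 26 of the 32 fits that each left out 1 array, with adjusted p up to 0.216. A second Slc11a2 probe, on the same chromosome from 100240516 to 100240575, rose in WT with LPS (0.729 log2, adjusted p = 0.0379) and LPS+zVAD (2.11, adjusted p = 3.17e-06) but read -0.16 with LPS in Ifnar1-/- (0.76). On this second Slc11a2 probe the change with LPS+zVAD was smaller in Ifnar1-/- by 1.33 log2 (interaction -1.33, adjusted p = 0.0225), so the probes disagree on whether the genotypes differ. With LPS+zVAD+Nec-1 in Ifnar1-/- the first probe gave 0.558 (adjusted p = 0.673), and 1.56 (0.000914) without replicate 2 of that group.

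Tfrc fell in WT BMDMs with LPS and with IFNβ, and LPS+zVAD was the exception. The probe, spotted 10 times on each array, lies on chromosome 16 of mm9 from 32632255 to 32632314 on the plus strand. WT levels were 12.00 and 11.22 untreated, 10.56 and 10.34 with LPS and 10.45 and 9.84 with IFNβ. With LPS+zVAD they were 11.49 and 11.50, inside the untreated spread and above both LPS arrays. With LPS+zVAD+Nec-1 they were 10.29 and 9.87, and with IFNβ+zVAD 10.46 and 9.69. In Ifnar1-/- BMDMs the untreated levels were 11.28 and 11.40, those with IFNβ 11.66 and 11.71, both higher, and those with LPS 10.46 and 10.89, both lower.

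In WT, Tfrc fell by 1.16 log2 with LPS (standard error 0.31, adjusted p = 0.00509), by 1.46 with IFNβ (0.00106), by 1.53 with IFNβ+zVAD (0.000669), by 1.53 with LPS+zVAD+Nec-1 (0.000595) and by 1.52 with IFNβ+zVAD+Nec-1 (0.000903). With LPS+zVAD its log2 fold change was -0.113 (adjusted p = 0.787). The LPS call was lost without WT untreated replicate 1 (-0.772, adjusted p = 0.104). In fits of only the arrays compared, adjusted p was 0.0646 with LPS, 0.0579 with IFNβ, 0.0645 with IFNβ+zVAD and 0.0694 with IFNβ+zVAD+Nec-1. The change with IFNβ was higher in Ifnar1-/- by 1.81 log2 (adjusted p = 0.00668) and that with IFNβ+zVAD by 1.57 (0.0164). The latter was lost without WT untreated replicate 1 (0.0942), Ifnar1-/- untreated replicate 1 (0.0578), WT IFNβ+zVAD replicate 2 (0.0897) or Ifnar1-/- IFNβ+zVAD replicate 2 (0.0563). In Ifnar1-/- the log2 fold change with LPS was -0.664 (adjusted p = 0.132, and 0.00707 with the slide as a block).

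The other Tfrc probes moved the same way in WT. On the brighter of them Tfrc fell by 1.33 log2 with LPS (adjusted p = 0.00128) and by 1.83 with IFNβ (9.02e-05), and it fell by 1.05 with LPS in Ifnar1-/- (0.0132). On the dimmer, which was well above background on 26 of the 32 arrays, the log2 fold changes in WT were -1.15 with LPS (adjusted p = 0.0809) and -1.35 with IFNβ (0.0477). Tfrc is known to be high in dividing cells. The mean log2 level of 10 proliferation markers was 9.79 and 10.59 in untreated WT, 8.48 and 9.25 with LPS, 8.97 and 9.36 with IFNβ and 9.29 and 10.08 with LPS+zVAD. In Ifnar1-/- it was 12.13 and 12.26 untreated, 10.79 and 10.93 with LPS and 12.20 and 12.29 with IFNβ. The part of these markers in the Tfrc values was not tested.

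Slc11a1, the phagosomal metal transporter, fell with IFNβ in WT BMDMs and did so in a way that depended on the scaling of the arrays. Its probe lies on chromosome 1 of mm9, from 74432161 to 74432220 on the plus strand. WT levels were 15.67 and 15.94 untreated, 15.27 and 15.89 with LPS and 14.66 and 14.57 with IFNβ. With LPS+zVAD they were 15.04 and 14.94, and with IFNβ+zVAD 14.81 and 14.61. The IFNβ and LPS+zVAD arrays were all below the untreated ones, while the LPS arrays overlapped them. In Ifnar1-/- all 16 arrays lay between 15.85 and 16.69.

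In WT, Slc11a1 fell with IFNβ by 1.19 log2 (adjusted p = 0.00077, standard error 0.24), by 1.1 with IFNβ+zVAD (0.00143), by 0.907 with IFNβ+zVAD+Nec-1 (0.00728) and by 0.82 with LPS+zVAD (0.00798). The genotypes' changes differed by 1.12 log2 with IFNβ (adjusted p = 0.0271) and by 1.29 with IFNβ+zVAD (0.0127). Under the shift to equal 75th percentiles none of these 6 calls held. The Slc11a1 values were then -0.647 with IFNβ (adjusted p = 0.0741), -0.549 with IFNβ+zVAD (0.128), -0.485 with IFNβ+zVAD+Nec-1 (0.201) and 0.00797 with LPS+zVAD (0.983), and the differences were 0.609 (0.337) and 0.683 (0.254). Without WT untreated replicate 2 the calls with LPS+zVAD (0.0779) and IFNβ+zVAD+Nec-1 (0.0785) and the difference with IFNβ+zVAD (0.0583) were lost. The IFNβ+zVAD+Nec-1 call was also lost when replicate 1 of WT IFNβ+zVAD+Nec-1 was left out (0.0522). The difference with IFNβ was lost without any 1 of WT untreated replicate 2 (0.105), Ifnar1-/- untreated replicate 2 (0.0901), WT IFNβ replicate 1 (0.0586) or 2 (0.0714), and Ifnar1-/- IFNβ replicate 1 (0.0724) or 2 (0.0644).

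Lcn2 rose with LPS in both genotypes, and no rise with IFNβ was called. Its probe lies on chromosome 2 of mm9, from 32240199 to 32240258 on the minus strand. In untreated BMDMs the levels were 9.62 and 10.04 in WT and 10.87 and 11.06 in Ifnar1-/-. With LPS they were 16.03 and 16.65 in WT and 15.13 and 15.35 in Ifnar1-/-. With IFNβ they were 9.84 and 10.66 in WT and 10.87 and 11.10 in Ifnar1-/-. The LPS arrays stood clear of the others in either genotype among untreated, LPS and IFNβ arrays, and there those of WT were the highest although its untreated arrays were the lower. With LPS+zVAD the levels were 12.57 and 12.68 in WT and 14.13 and 14.32 in Ifnar1-/-. With LPS+zVAD+Nec-1 they were 14.89 and 15.09 in WT and 16.04 and 10.98 in Ifnar1-/-, so that the second Ifnar1-/- array lay at its untreated level.

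LPS raised Lcn2 by 91.3-fold in WT (log2 fold change 6.51, standard error 0.88, adjusted p = 1.27e-05) and by 19.4-fold in Ifnar1-/- (4.27, adjusted p = 0.00162). LPS+zVAD raised it by 6.95-fold in WT (2.80, adjusted p = 0.0122) and by 9.56-fold in Ifnar1-/- (3.26, adjusted p = 0.00944). LPS+zVAD+Nec-1 raised it by 35.9-fold in WT (5.16, adjusted p = 0.000132), and in Ifnar1-/- the log2 fold change was 2.55 (0.186). That last value was 5.08 (adjusted p = 6.59e-08) without Ifnar1-/- LPS+zVAD+Nec-1 replicate 2 and 0.0171 (1) without replicate 1, so that either array decides it. With IFNβ the Lcn2 log2 fold change was 0.423 in WT (adjusted p = 0.769). Without the discordant pair the change of Lcn2 with LPS differed between the genotypes (-2.24 log2, adjusted p = 0.0021), whereas with that pair in the fit the adjusted p was 0.355. The WT call with LPS+zVAD was lost without WT untreated replicate 1 (0.0659) or WT LPS+zVAD replicate 2 (0.0555), and that in Ifnar1-/- without Ifnar1-/- untreated replicate 1 (0.0549) or Ifnar1-/- LPS+zVAD replicate 2 (0.0528). Lcn2 is also abundant in neutrophils, and the mean log2 level of the 12 neutrophil markers was 8.91 and 10.12 in untreated WT and 8.86 and 9.96 with LPS. The genes most like Lcn2 over the 16 group means were C920021A13 (r = 0.967), Batf (0.967) and Gm10404 (0.965).

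The mRNAs of the 2 iron regulatory proteins moved in opposite directions in WT BMDMs given LPS, alone or with zVAD, or IFNβ with zVAD: Ireb2 (IRP2) rose and Aco1 (IRP1) fell. The rise of Ireb2 with IFNβ alone was not called, neither gene was called with zVAD alone, and the arrays measure no protein. The Ireb2 probe lies on chromosome 9 of mm9, from 54756566 to 54756625 on the plus strand. Ireb2 levels in WT were 7.81 and 7.48 untreated, 9.11 and 8.86 with LPS, 8.24 and 8.33 with IFNβ and 9.17 and 9.75 with LPS+zVAD. In Ifnar1-/- they were 7.31 and 7.77 untreated, 8.38 and 8.48 with LPS, 8.10 and 8.07 with IFNβ and 8.87 and 8.98 with LPS+zVAD. All these treated arrays were above the untreated arrays of their genotype, those with IFNβ in Ifnar1-/- included. So were the Ireb2 arrays with zVAD alone, at 7.92 and 8.02 in WT and 7.83 and 8.07 in Ifnar1-/-. No difference between the genotypes' changes of Ireb2 with IFNβ was called.

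In WT, Ireb2 rose by 1.34 log2 with LPS (standard error 0.26, adjusted p = 0.000431), by 1.82 with LPS+zVAD (1.1e-05), by 1.22 with LPS+zVAD+Nec-1 (0.00103), by 1.01 with IFNβ+zVAD (0.00501) and by 1.11 with IFNβ+zVAD+Nec-1 (0.00301). With IFNβ alone its log2 fold change was 0.644 (adjusted p = 0.0631, and 0.0306 with the slide as a block). In Ifnar1-/-, Ireb2 rose by 0.89 log2 with LPS (adjusted p = 0.0169) and by 1.38 with LPS+zVAD (0.000761). The difference between the genotypes' changes with LPS was -0.452 (adjusted p = 0.6). Ireb2 calls were lost without WT untreated replicate 2 for IFNβ+zVAD (0.0629), without WT IFNβ+zVAD+Nec-1 replicate 1 for IFNβ+zVAD+Nec-1 (0.0579), and for LPS in Ifnar1-/- without Ifnar1-/- untreated replicate 1 (0.184) or Ifnar1-/- LPS replicate 1 (0.0646) or 2 (0.0944).

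The Aco1 probe lies on chromosome 4 of mm9, from 40145780 to 40145839 on the plus strand. Aco1 levels in WT were 7.61 and 7.90 untreated, 6.76 and 6.64 with LPS, 6.72 and 6.69 with IFNβ and 6.84 and 6.20 with LPS+zVAD. In Ifnar1-/- they were 7.97 and 8.33 untreated, 7.86 and 8.10 with LPS, 8.06 and 8.14 with IFNβ and 7.62 and 7.48 with LPS+zVAD. The treated WT arrays were all below the untreated ones. In Ifnar1-/- the LPS and IFNβ arrays overlapped the untreated ones and the LPS+zVAD arrays were below them.

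In WT, Aco1 fell by 1.05 log2 with LPS (standard error 0.33, adjusted p = 0.0144), by 1.05 with IFNβ (0.0176), by 1.23 with LPS+zVAD (0.0038), by 1.32 with IFNβ+zVAD (0.00364), by 0.905 with LPS+zVAD+Nec-1 (0.0334) and by 1.30 with IFNβ+zVAD+Nec-1 (0.00509). Under the 75th percentile shift limma no longer called Aco1 with IFNβ (-0.965, adjusted p = 0.0554) or with LPS+zVAD+Nec-1 (-0.759, 0.121). The LPS+zVAD+Nec-1 call was also lost without the filter on dim probes (0.0538). In Ifnar1-/- limma called none of the 7 changes of Aco1, the lowest value being -0.601 with LPS+zVAD (adjusted p = 0.19). The difference between the genotypes was 0.998 log2 with IFNβ (adjusted p = 0.147, and 0.0462 in a fit of those arrays alone) and 1.15 with IFNβ+zVAD+Nec-1 (0.0964, and 0.0395 with the slide as a block). Each Aco1 call was lost when some array was left out: WT untreated replicate 2 for LPS (0.105), IFNβ (0.123), IFNβ+zVAD+Nec-1 (0.054) and LPS+zVAD+Nec-1 (0.183), WT LPS replicate 2 for LPS (0.067), WT IFNβ replicate 1 (0.0673) or 2 (0.071) for IFNβ, WT LPS+zVAD replicate 2 for LPS+zVAD (0.068), WT IFNβ+zVAD replicate 2 for IFNβ+zVAD (0.088), WT untreated replicate 1 (0.057) and WT LPS+zVAD+Nec-1 replicate 1 (0.11) or 2 (0.102) for LPS+zVAD+Nec-1, and WT IFNβ+zVAD+Nec-1 replicate 2 for IFNβ+zVAD+Nec-1 (0.065).

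The ferritin probes were among the brightest of the array, and the direction of their small changes depended on the scaling. The Fth1 probe (chromosome 19 of mm9, 10059485 to 10059544, plus strand) ranked between 1 and 45 of all probes by brightness, with a median rank of 6. Fth1 levels in WT were 18.70 and 18.39 untreated, 18.38 and 18.28 with LPS and 18.41 and 18.10 with LPS+zVAD. In Ifnar1-/- they were 18.38 and 18.44, 18.55 and 18.41, and 18.70 and 18.41. In WT the LPS arrays were just below both untreated ones and the LPS+zVAD arrays overlapped them, and limma called Fth1 in 0 of the 30 comparisons (1 at an unadjusted p under 0.05), its log2 fold change with LPS in WT being -0.216 (adjusted p = 0.344).

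Under the 75th percentile shift the change of Fth1 in WT became 0.462 with LPS (adjusted p = 0.165) and 0.703 with LPS+zVAD (0.0257). The top ranks have a fixed value under quantile normalization, and the brightest probe of each array reads 18.70 there. The Ftl1 probe that stands for the gene (chromosome 7 of mm9, 52713309 to 52713368, minus strand) lists 4 RefSeq transcripts, and signal of near-identical copies cannot be told apart on it. Ftl1 levels in WT were 18.34 and 18.18 untreated, 17.91 and 17.79 with LPS and 17.92 and 17.77 with LPS+zVAD. The treated WT arrays were below the untreated ones, and Ftl1 fell by 0.411 log2 with LPS (standard error 0.16, adjusted p = 0.048) and by 0.414 with LPS+zVAD (0.0385). Under the shift the values of Ftl1 were 0.196 (adjusted p = 0.714) and 0.543 (0.184). The call with LPS was lost in 22 of the 32 fits without 1 array (up to 0.224), and that with LPS+zVAD without WT untreated replicate 1 (0.186) or 2 (0.0597) or WT LPS+zVAD replicate 1 (0.0516) or 2 (0.178).

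Another Ftl1 probe spans a splice junction, 482 bases of chromosome 7 from 52714014 to 52714495 on the minus strand. It is shown because it reads the spliced transcript, and it fell with IFNβ, where the other Ftl1 probe gave -0.354 (adjusted p = 0.0979, and 0.0202 with the slide as a block):

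Ftl1 probe across the junction: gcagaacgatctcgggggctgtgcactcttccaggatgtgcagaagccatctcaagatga

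On this Ftl1 probe the WT levels were 17.91 and 17.94 untreated, 17.25 and 17.05 with LPS, 17.21 and 17.16 with IFNβ and 17.71 and 17.53 with LPS+zVAD. It fell by 0.778 log2 with LPS (standard error 0.14, adjusted p = 0.000247) and by 0.737 with IFNβ (0.000505), and with LPS+zVAD the value was -0.306 (0.0798). Under the 75th percentile shift the other Ftl1 probe read 18.49 and 18.23 with IFNβ in WT, above its untreated 18.11 and 17.89. The WT levels of the junction probe were then 17.76 and 17.67 untreated and 17.61 and 17.31 with LPS, still lower. With IFNβ this probe read 17.66 and 17.54, only slightly lower, and with LPS+zVAD it read 18.31 and 18.39, now higher. In Ifnar1-/- its log2 fold changes were -0.145 with LPS (adjusted p = 0.542) and -0.156 with IFNβ (1), and the differences between the genotypes were 0.633 (0.0696) and 0.581 (0.0508).

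**Figure D3:**
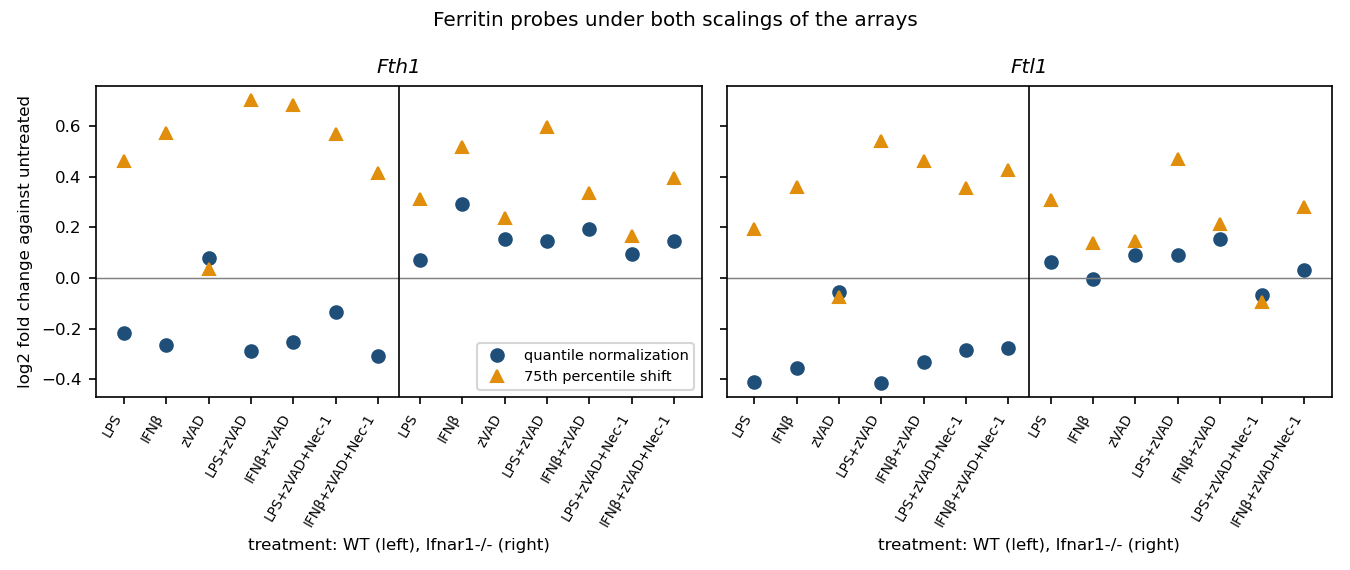
Log2 fold change against untreated cells (vertical axis) of the probes that stand for Fth1 and Ftl1 (not the junction probe) for the 7 treatments (horizontal axis; WT left and Ifnar1-/- right of the line), under quantile normalization (blue circles) and under a shift of each array to a common 75th percentile (orange triangles). In WT the LPS and IFNβ columns are below 0 under the former and above 0 under the latter, for example -0.22 and 0.46 for Fth1 with LPS.

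The comparison of genotypes asked which of these changes need the type I interferon receptor. The change with IFNβ differed in 3 members (Slc40a1, Tfrc and Slc11a1), against 18.8% of all genes, and that with IFNβ+zVAD in the same 3, against 19.3%. With LPS+zVAD+Nec-1 it was 1, Slc40a1, against 17.8%, and with IFNβ+zVAD+Nec-1 again Slc40a1 alone, against 18.2%. For LPS limma called 0 members and 6.64% of all genes, with 1 member and 3118 genes at an unadjusted p under 0.05. For LPS+zVAD it called 0 members and 16.1% of all genes, with 3 members and 4591 genes at that p, and for zVAD 0 members and 0% of all genes, with 0 members and 163 genes. With the slide as a block the count over these 7 comparisons went from 8 to 16 of 63, and the added calls were of Slc40a1 with LPS, Ftl1 with LPS+zVAD and IFNβ+zVAD, Slc11a1 with LPS+zVAD and IFNβ+zVAD+Nec-1, Tfrc with both Nec-1 treatments and Aco1 with IFNβ+zVAD+Nec-1. 

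In untreated BMDMs limma called 0 members between the genotypes, against 8.73% of all genes, and 0 members and 3364 genes had an unadjusted p under 0.05. Lcn2 was 1.14 log2 higher in untreated Ifnar1-/- BMDMs (adjusted p = 0.534, and 0.0166 without the discordant pair). On the second Slc11a2 probe the untreated genotypes differed by 0.953 log2 (adjusted p = 0.0332), with 9.89 and 9.91 in WT against 11.15 and 10.56 in Ifnar1-/-. These differences cannot be told apart from slide differences.

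**Figure D4:**
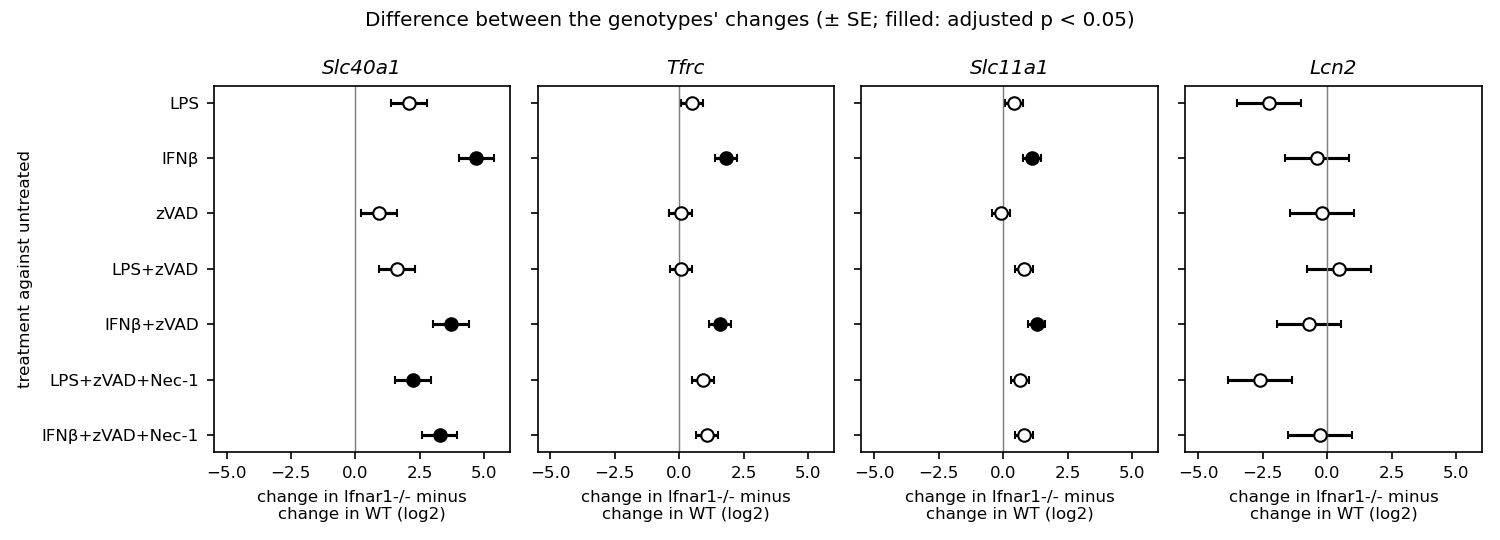
Difference between the genotypes' log2 fold changes (horizontal axis, change in Ifnar1-/- minus change in WT, with standard errors) for Slc40a1, Tfrc, Slc11a1 and Lcn2 under the 7 treatments (vertical axis); filled circles have an adjusted p under 0.05. Slc40a1 is filled at 4.69 for IFNβ and 3.71 for IFNβ+zVAD, whereas Lcn2 is open throughout.

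Adding zVAD to LPS in WT BMDMs lowered Lcn2 and raised Tfrc. These were the 2 members called, against 34.6% of all genes. Lcn2 fell by 3.71 log2, or 13.1-fold (adjusted p = 0.00271), from 16.03 and 16.65 to 12.57 and 12.68. Tfrc rose by 1.05 log2 (adjusted p = 0.012), a call lost without WT LPS replicate 2 (0.093) or WT LPS+zVAD replicate 2 (0.0616). On the second Slc11a2 probe zVAD added 1.38 log2 to LPS in WT (adjusted p = 0.000599), where the first gave 0.333 (0.591).

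In Ifnar1-/- BMDMs limma called 0 members for zVAD added to LPS, against 8.25% of all genes, and 0 members and 3489 genes had an unadjusted p under 0.05. On the second Slc11a2 probe, which does not stand for its gene in these counts, the level was higher by 0.931 log2 (adjusted p = 0.041). Lcn2 read -1.02 log2 there (adjusted p = 0.594, and 0.0321 without the discordant pair). For zVAD added to IFNβ limma called 0 members in WT and 0% of all genes (0 members and 637 genes under that p), and 0 members in Ifnar1-/- and 0.00624% (0 members and 370 genes). With the slide as a block the count of calls over the 4 comparisons went from 2 to 4, adding Slc11a1 with LPS in WT (-0.589 log2, blocked adjusted p = 0.027) and Tfrc with LPS in Ifnar1-/- (0.603, blocked 0.0251). Without the discordant pair, Slc40a1 with LPS in WT was called as well (0.802 log2, adjusted p = 0.235 with the pair and 0.0306 without), as was Slc11a1 (0.0265).

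Adding Nec-1 to LPS+zVAD in WT BMDMs lowered Tfrc by 1.42 log2 (adjusted p = 0.00177), the 1 member called against 28.5% of all genes. In a fit of those arrays alone its adjusted p was 0.0607. The second Slc11a2 probe fell by 1.08 log2 in WT (adjusted p = 0.00532) and by 0.904 in Ifnar1-/- (0.0267). Lcn2 was 2.37 log2 higher, with 14.89 and 15.09 against 12.57 and 12.68, where the adjusted p was 0.0512 in the fit of all arrays, 0.036 with the slide as a block and 1.45e-05 without the discordant Ifnar1-/- pair. In Ifnar1-/- BMDMs 2 members were called, against 18.8% of all genes. Ireb2 fell there by 1.04 log2 (adjusted p = 0.0103; lost without Ifnar1-/- LPS+zVAD replicate 1, 0.0583, or 2, 0.0652), from 8.87 and 8.98 to 7.79 and 7.98, and was still called without either array of the discordant pair (-0.943, 0.0366, and -1.13, 0.036). Slc11a2 fell by 1.19 (adjusted p = 0.0452), a call that 25 of the 32 fits without 1 array lost (up to 0.78) and that rests on the second array of the discordant pair (13.86 and 11.85), at -2.19 (2.37e-05) without the first and -0.185 (0.78) without the second. Lcn2 in Ifnar1-/- turned with the array kept, from -3.24 log2 (adjusted p = 6.43e-06) without replicate 1 of LPS+zVAD+Nec-1 to 1.82 (0.00417) without replicate 2, and Slc40a1 from 1.33 (0.00771) to -1.15 (0.044).

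For Nec-1 added to IFNβ+zVAD limma called 0 members in WT and 0% of all genes (0 members and 613 genes at an unadjusted p under 0.05). In Ifnar1-/- it called 0 members and 1.58% of all genes (1 member and 1593 genes), and without the discordant pair Slc11a2 was called there (-1.03 log2, adjusted p = 0.0172). With the slide as a block the count over the 4 Nec-1 comparisons went from 3 to 6, adding Lcn2 and Ireb2 in WT (-0.601 log2 for Ireb2, blocked adjusted p = 0.0482) and Tfrc in Ifnar1-/- (-0.561, blocked 0.022) for LPS+zVAD.

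Other iron genes were counted on the same arrays. Of 68 further genes of iron and heme handling, 67 are on the array and 55 could be tested. These lists were chosen with earlier results of these data known. No excess over the share of all genes is therefore read from the counts. In WT BMDMs LPS changed 35 of the 55 (11 higher, 24 lower), or 63.6%, beside 41.2% of all genes, and in Ifnar1-/- 19 (7 higher, 12 lower), or 34.5%, beside 24.8%. The median log2 fold change of the 55 with LPS in WT was -0.539, beside -0.0779 over all genes. In the interaction test the genotypes' changes with LPS differed in 9 of the 55, or 16.4%, beside 6.64% of all genes. IFNβ changed 27 in WT, or 49.1% beside 35.3% of all genes, and 0 in Ifnar1-/-, where limma called 0 genes in all. With zVAD added to LPS in WT, 20 changed, or 36.4% beside 34.6% of all genes, a share near the background.

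Among the genes of import and reduction, 3 of 9 changed with LPS in WT, or 33.3%, beside 41.2% of all genes. The zinc and iron importer Slc39a14 rose by 5.23 log2 in WT (adjusted p = 1.41e-06) and by 4.66 in Ifnar1-/- (3.99e-05). Trf, which encodes transferrin, fell by 1.37 log2, and Mcoln1, a lysosomal channel, fell by 1.34. In the export and hepcidin group 4 of 7 changed in WT, or 57.1%. The ferroxidase Cp (ceruloplasmin) rose by 7.08 log2 in WT (adjusted p = 0.000124) and by 7.94 in Ifnar1-/- (0.000161), Id1 rose by 2.96 in WT, Hfe, the hemochromatosis gene, fell by 2.46 in WT and 2.20 in Ifnar1-/-, and Smad7 fell by 2.35 in WT. With zVAD added to LPS in WT, Cp fell by 4.01 log2 and Slc39a14 by 1.82, while Smad7 rose by 2.07.

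Of 5 genes of iron storage and IRP control, 2 changed with LPS in WT, or 40%, beside 41.2% of all genes. Fbxl5, whose product marks IRP2 for degradation when iron is ample, rose by 2.87 log2, and Ncoa4, the receptor that delivers ferritin to lysosomes, fell by 1.83. In Ifnar1-/- Fbxl5 rose by 1.84. Of 15 genes of mitochondrial iron and iron-sulfur clusters, 12 changed in WT (3 higher, 9 lower), or 80%, beside 41.2% of all genes. In Ifnar1-/- 2 of them changed, or 13.3%, beside 24.8%. With LPS+zVAD, 7 of the 15 changed in Ifnar1-/-, or 46.7%, beside 28.2% of all genes. In the interaction test the genotypes' changes with LPS itself differed in only 3 of the 15, or 20%, beside 6.64% of all genes. Hscb, a co-chaperone of iron-sulfur cluster transfer, fell by 3.72 log2 in WT and 2.19 in Ifnar1-/-, and Slc25a37 (mitoferrin 1) rose by 1.16 in WT and 2.59 in Ifnar1-/-. Of 19 heme genes, 14 changed in WT and 10 in Ifnar1-/-, or 73.7% and 52.6%, beside the same 41.2% and 24.8%. The genotypes' changes differed in 5 of the 19, or 26.3%, beside the same 6.64%. The hemoglobin scavenger Hp (haptoglobin) rose by 5.58 log2 in WT and 6.10 in Ifnar1-/-, Hmox1 (heme oxygenase 1) rose by 1.16 and 1.73, Mfsd7b, an older symbol of the heme exporter Flvcr1, fell by 2.77 and 2.06, and Fech, which inserts iron into heme, fell by 2.05 in WT. With zVAD added to LPS in WT, Hp fell by 4.63 log2 and Mfsd7b rose by 3.76.

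With IFNβ in WT, 12 of the 15 mitochondrial genes changed (4 higher, 8 lower; 80% beside 35.3% of all genes), with Slc25a28 (mitoferrin 2) higher by 1.33 log2 and Hscb lower (-2.29 log2). Of the heme genes 10 of 19 changed (52.6%), and Slc48a1, which carries heme out of the lysosome, fell by 2.20 log2. Of the import genes 1 of 9 changed (11.1%), of the export genes 2 of 7 (28.6%) and of the storage genes 2 of 5 (40%), beside the same 35.3%.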

How the data were processed

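RNA of 32 BMDM samples was hybridised to 1-colour Agilent arrays. The deposited scanner files hold the intensity of each spot (the processed signal of Feature Extraction 11.5.1.1, background-subtracted), and the authors also deposited log2 values, which served as an alternative. The paper's methods name quantile normalization, and limma stands in the submitters' processing notes. Here outlier spots (130 to 499 per array) were dropped, spots of a probe averaged in log2 and arrays quantile normalized. Probes well above background on at least 50% of arrays were kept, and the brightest probe stood for a gene. limma 3.58.1 (R 4.3.3) fitted 16 group means, with Python 3.11.15 for tables. On simulated arrays, drawn independently with 200 of 16035 genes changed, limma found for LPS in WT 72 of 100 genes set to differ by 2 log2. It found 30 of 100 set to differ by 1 log2, with 4 false calls. For LPS in Ifnar1-/- it found 56 and 25, with 6 false calls. Far more genes were called in the data, and slides were not simulated, so these rates do not carry over to the real comparisons. Arrays of 1 slide deviated together (28 of 28 pairs of groups per genotype, r from 0.169 to 0.67), so replicate numbers pair the treatments within a genotype. Probe coordinates are those of mm9 in the scanner files, and exon positions were not worked out. The number of arrays limits the precision. All members are named, and from the other iron lists up to 3 called genes with the largest rise and fall per list and comparison. The members and lists were chosen with earlier results of these data known. Some genes of the other iron lists are not reported here by name.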

Additional observations from a re-analysis of the deposited data

Results flagged for a closer look

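The change with treatment differed between the genotypes, by the interaction test in limma, for 3 members. For Slc40a1 the change in Ifnar1-/- minus the change in WT was 4.69 log2 with IFNβ, 3.71 with IFNβ+zVAD, 3.26 with IFNβ+zVAD+Nec-1 and 2.22 with LPS+zVAD+Nec-1. The value of 2.22 was not called by limma with only the arrays compared (adjusted p = 0.292) or without the filter (0.0533). It includes the discordant pair, and read 3.46 without replicate 1 of that pair and 0.981 without replicate 2. For Tfrc the difference was 1.81 log2 with IFNβ and 1.57 with IFNβ+zVAD, the latter not called by limma with only the arrays compared (adjusted p = 0.0706). For Slc11a1 the difference was 1.12 log2 with IFNβ and 1.29 with IFNβ+zVAD, and neither passed under the 75th percentile shift.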

How the results depend on the processing

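The alternatives gave 2716 values for 68 of the results. Of these values 2517 kept their direction and side of the threshold, 164 no longer passed, 28 newly passed and 7 changed sign. Those 7 sign changes came under the 75th percentile shift for Slc11a1 with LPS (0.349) and LPS+zVAD (0.00797), Ftl1 (0.196 and 0.543) and Fth1 (0.462 and 0.703) in WT, and for Slc11a1 with LPS without WT LPS replicate 1 (0.0787, against -0.541 without WT LPS replicate 2). The cause was not tested. Outside the 68 results, Fth1 and Ftl1 with IFNβ in WT also turned from lower to higher under the shift. With the slide as a replicate block, which pairs the samples, the calls went from 8 to 16 for genotype differences, from 2 to 4 for zVAD added and from 3 to 6 for Nec-1 added; the block also added Ftl1 with IFNβ (0.0202) and IFNβ+zVAD (0.0272) in WT and Tfrc with LPS+zVAD+Nec-1 in Ifnar1-/- (0.0481), and beside these and those given in the report it changed no other call. Without the discordant Ifnar1-/- pair, a setting added once the data had been seen, genotype differences went from 7 to 11 calls over the 6 comparisons that remain, Nec-1 added from 1 to 3 over 3, zVAD added from 2 to 5 and the untreated genotypes from 0 to 1. Without the filter zVAD added gave 4, since Hamp is then tested, and with only the arrays compared Nec-1 added gave 0 and treatment in WT 24 against 34, with adjusted p of 0.0731 and 0.0517 for Aco1 with IFNβ+zVAD and IFNβ+zVAD+Nec-1, 0.0606 for Slc11a1 and 0.0713 for Ireb2 with the latter, and 0.214 and 0.19 for Ftl1 with LPS and LPS+zVAD. Leaving out 1 array gave 25 to 35 calls for treatment in WT (lowest without WT untreated replicate 2), 5 to 11 in Ifnar1-/- (lowest without Ifnar1-/- untreated replicate 1), 6 to 14 for genotype differences, 1 to 5 for zVAD added, 1 to 7 for Nec-1 added, 0 to 1 for untreated genotypes, and 30 to 36 and 14 to 22 of the other iron genes with LPS in WT and Ifnar1-/-. In these fits the lone array was assumed to vary like the other groups.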
